A study of Mus musculus with 10 samples.

Results

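Public clonotypes are antibody rearrangements that recur in separate samples. Here they are the productive Igh clonotypes, each defined by its V gene entry, its J gene and the amino acid sequence of its CDR3, that had at least 1 read in all 4 heavy-chain libraries of peritoneal cavity B-1a cells. There were 1753 of them among 149111 productive clonotypes, or 1.18%. Another 4481 clonotypes occurred in 3 libraries, 14034 in 2, and 128843, or 86.4%, in 1 library only. The last are called private here. Because presence in all libraries chose the public clonotypes, their presence and their read numbers are given as a description.

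The study asked how B-1a cells form when the surrogate light chain (SLC) is missing. All mice were C57BL/6 and 6 to 8 weeks old. Wild-type B-1a cells gave 2 libraries, and B-1a cells of mice with a knockout of Igll1, which encodes the λ5 part of the SLC, gave the other 2. The cells were sorted by flow cytometry and carried no other allele or treatment that the labels name. Genomic DNA was amplified with primers in framework region 3 of V and in J, and products of 120 to 280 bp were sequenced. Only Igh DNA was read, so neither the sort markers nor the loss of Igll1 could be checked in these libraries. The study calls the replicates independent experiments, but the labels do not say that they came from separate mice, so p-values measure only the spread between these libraries, part of which may be technical.

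The CDR3 of a heavy chain spans the joint of V, D and J and carries most of its diversity. B-1a cells arise largely early in life, when terminal transferase, the enzyme that adds untemplated N nucleotides to the joints, is low or absent, and joints are then often made at short stretches of matching bases. B-1a cells are also known for VH11 and VH12 antibodies that bind phosphatidylcholine (PtC), a membrane lipid, and for CDR3 sequences that return from mouse to mouse. At the pre-B cell stage a new heavy chain normally pairs with the SLC to form the pre-BCR, and this step is lost without λ5.

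The CDR3 sequences of the 12 public clonotypes with the highest mean share of reads over the 4 libraries show which joints recurred. They are given with their V and J gene, as deposited, and position 1 is the first residue after the conserved cysteine. The end of each CDR3 comes from J. An untrimmed IGHJ1 ends in WYFDV, IGHJ2 in YFDY and IGHJ3 in FAY, and joints such as numbers 10 and 12 depart from this.
1, IGHV11-2 and IGHJ1: MRYGNYWYFDV
2, IGHV12-3 and IGHJ1: AGDNYGYWYFDV
3, IGHV11-2 and IGHJ1: MRYSNYWYFDV
4, IGHV11-2 and IGHJ1: MRYGSSYWYFDV
5, IGHV5-17 and IGHJ2: ARHYYGSSYYFDY
6, IGHV12-3 and IGHJ2: AGDLYDGYYYFDY
7, IGHV12-3 and IGHJ1: AGDYDGYWYFDV
8, IGHV1-47 and IGHJ3: ARGGFAY
9, IGHV12-3 and IGHJ2: AGDRGGYYYFDY
10, IGHV1-26 or IGHV1-34 and IGHJ2: YYSDY
11, IGHV11-2 and IGHJ1: MRYGSSWYFDV
12, IGHV12-3 and IGHJ2: AGDRSGYGNLDY
IGHV11-2 or IGHV12-3 formed 9 of these 12. The IGHV11-2 joints differed mainly in the D-encoded residues between MRY and WYFDV, and those of IGHV12-3 all began with AGD.

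Depth was 205921 and 200915 productive reads for wild-type replicates 1 and 2, and 170208 and 264284 for those of Igll1-/-. Clonotypes of 1 read were 66.7% to 72.3% of those in a library. No molecular barcode marked the starting molecules, so a read number mixes cells with PCR amplification, and intervals and floors cover counting error only. A single read was worth 0.0378 to 0.0588 reads per 10000, and 3 reads, the floor below which a count of 0 cannot be told from presence, were a share of 0.00114% to 0.00176%. Of the clonotypes in a library, 3.50% and 3.91% were public for wild-type, and 5.93% and 3.31% for Igll1-/-. Most stood near or below that floor of 3 reads. Their median was 4 reads in wild-type replicate 1 and 2 reads in each of the others, and 1273 of 1753 (72.6%) had a single read in at least 1 library. At least 10 reads in every library were reached by 33. Clonotypes missing from 1 library included some with many reads elsewhere. AGDRSGYYYFDY (IGHV12-3, IGHJ2) had 1154, 270, 0 and 11 reads in wild-type replicates 1 and 2 and Igll1-/- replicates 1 and 2. In the same order AYYSNYYAMDY (IGHV1-20, IGHJ4) had 13, 0, 2 and 1793 reads.

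The share of productive reads held by public clonotypes was 37.3% (95% Wilson interval 37.1 to 37.5) and 30.3% (30.1 to 30.5) in the wild-type libraries. It was 41.0% (40.8 to 41.3) and 19.3% (19.1 to 19.4) in the Igll1-/- libraries. Wild-type libraries had a mean of 33.8% ± 4.92 (SD, n = 2). Igll1-/- libraries had a mean of 30.2% ± 15.4 (SD, n = 2), and their 2 values lay on either side of both wild-type values. A few clonotypes carried much of this. In each library the largest clonotype of all was public. That was MRYGNYWYFDV for wild-type, at 6.65% and 7.96% of reads. In Igll1-/- replicate 1 it was AGDNYGYWYFDV at 13.1%, and in replicate 2 AGDLYDGYYYFDY at 3.98%. Without the largest clonotype the public share was 30.6%, 22.4%, 27.9% and 15.3% in the order above. Without the 10 largest public clonotypes of each library it was 13.7% ± 1.86 (SD, n = 2) for wild-type, against 11.8% ± 2.18 (SD, n = 2) for Igll1-/-. Private clonotypes held 34.6% to 49.9% of the reads of a library.

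Read number and recurrence went together. Of 8820 clonotypes with at least 10 reads in their best library, 593 (6.72%) were public. Of 726 with at least 100 reads it was 188 (25.9%), and of 41 with at least 1000 reads it was 30 (73.2%), with 5 private. The largest private clonotype, ATMITTWFAY (IGHV9-3, IGHJ3), had 2404 reads in Igll1-/- replicate 2. The 30 large public clonotypes were often scarce in their poorest library. The median there was 8 reads (range 1 to 717), and per 1000 reads in the richest library it was a median of 3.51 (range 0.850 to 166). In 24 of the 30 it was under 10 per 1000. Whether reads passed from one library to another was not tested.

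**Figure D1:**
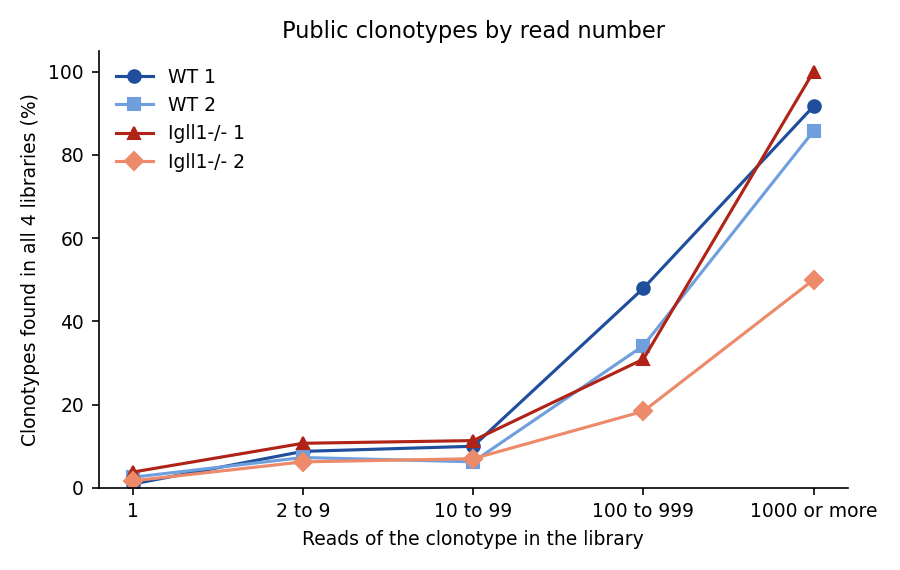
Percent of the clonotypes of each library that were found in all 4 libraries (y axis), by the number of reads of the clonotype in that library (x axis, 5 classes). Every line starts at no more than 3.78% among clonotypes of 1 read and has its highest point at 1000 reads or more, with 100% in Igll1-/- replicate 1 and Igll1-/- replicate 2 the lowest. In wild-type replicate 2 the share is 7.29% at 2 to 9 reads and 6.25% at 10 to 99. The class of 1000 reads or more holds 7 to 18 clonotypes per library.

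Public clonotypes had shorter CDR3s than private ones, and more of them used IGHJ2. The mean CDR3 was 9.54 amino acids in public clonotypes, and 10.9, 10.7, 10.7 and 10.3 in the private clonotypes of wild-type replicates 1 and 2 and Igll1-/- replicates 1 and 2. The difference was −1.10 amino acids (SD 0.24 over 4 libraries), with the public value lower in 4 of 4. CDR3s of at most 7 amino acids made up 26.7% of public clonotypes and 12.2% to 19.9% of private ones. CDR3s of 15 or more made up 3.02% against 7.68% to 9.14%. The mean fell in steps as more libraries shared a clonotype, from 10.6 in 1 library through 10.3 and 9.91 in 2 and 3 libraries to 9.54 in all 4. With 4 libraries an exact sign-flip permutation test (two-sided) cannot go below p = 0.125, which is what this difference gave (adjusted p = 0.149 over the 31 features compared). None of the features below can therefore pass a threshold of 0.05. The public set is the same in each library, so the private clonotypes carry the spread.

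**Figure D2:**
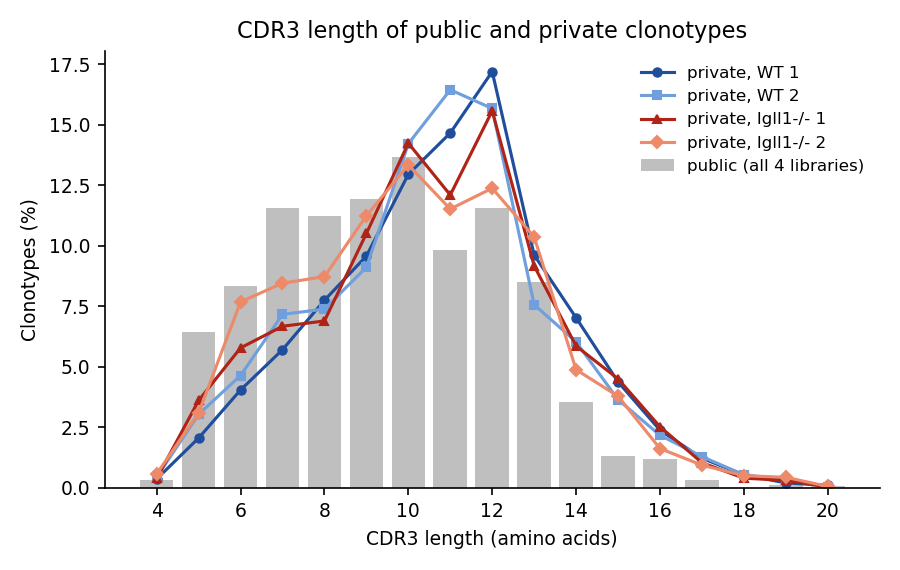
Percent of clonotypes (y axis) at each CDR3 length in amino acids (x axis, 4 to 20). Bars show the 1753 public clonotypes and lines the private clonotypes of each library. The public bars lie above all 4 lines at 5, 6, 7, 8 and 9 amino acids and below all of them at 4, 11, 12 and 14 to 19.

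IGHJ2 was used by 1076 public clonotypes (61.4%) and by 40.6% to 44.0% of the private clonotypes of a library, 19.1 points more by clonotypes (SD 1.84, higher in 4 of 4 libraries). IGHJ4 was used by 170 (9.70%) against 19.2% to 21.1%, which is 10.2 points less (SD 0.84). IGHJ3 was used by 333 (19.0%) against 18.3% to 26.9%, so the private range held the public value. IGHJ1 was used by 174 (9.93%) against 11.3% to 18.5%. IGHJ2 stayed higher at each length. In public clonotypes of at most 7, 8 to 12, and 13 or more amino acids its share was 72.6%, 59.3% and 49.6%, and the highest private values were 62.8%, 47.1% and 30.0%. This breakdown by length was chosen after the data were seen.

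Public clonotypes also differed in D. No D gene was named in 236 public clonotypes (13.5%), against 4.43% to 5.94% of private ones, 8.40 points more (SD 0.63, higher in 4 of 4). Of the public clonotypes of at most 7 amino acids 43.4% had no named D, against at most 26.3% of private ones of that length. Longer joints differed little, at 3.23% against at most 2.97% at 8 to 12 amino acids and 0% against at most 0.424% above that. IGHD4-1, the shortest D gene and the one next to the J genes, was named in 277 (15.8%) against 7.47% to 12.8%. At 13 or more amino acids its share of 2.27% lay within the private range of 0.884% to 2.81%. The D2 family was lower at 33.3% against 37.6% to 44.3%, and the D3 family at 5.59% against 6.22% to 9.83%. The D1 family held 30.5% against 32.1% to 35.6%. IGHD1-1 alone was named in 497 public clonotypes. D5 and D6 were rare, at 0.456% and 0.856% of public clonotypes.

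Among V families, counted by clonotypes, the largest difference was that of IGHV5, a family located near the D genes. It gave 555 public clonotypes (31.7%) and 12.9% to 20.2% of private ones, 15.5 points more (SD 3.17, higher in 4 of 4 libraries). IGHV1, the large J558 family, gave 870 (49.6%) against 55.8% to 58.6%. Families IGHV2, IGHV3, IGHV8 and IGHV14 gave 5, 3, 2 and 12 public clonotypes, and their shares were lower than in the private clonotypes of all 4 libraries. IGHV9 gave 106 (6.05%), inside the private range of 5.28% to 8.01%. The IGHV5 excess was seen at each length and was smallest in the shortest joints, at 15.8% against at most 11.6% up to 7 amino acids. It was 36.5% against at most 21.3% at 8 to 12 amino acids and 40.9% against at most 25.0% above that.

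Single V genes differed within a family. IGHV5-4 gave the most public clonotypes, 176, which is 2.97% of all IGHV5-4 clonotypes. IGHV5-17 gave 167, 9.53% of public against 5.01% of all private clonotypes. IGHV5-12 gave 89, 5.08% against 1.84%. Then came the joint entries IGHV1-26 or IGHV1-34 with 88, IGHV1-69 or IGHV1-74 with 76 and IGHV5-12-1 or IGHV5-17 with 74. IGHV12-3 gave 67, IGHV1-19 58, the entry IGHV9-2-1 or IGHV9-3 57 and IGHV1-7 52. IGHV12-3 was less frequent among public clonotypes (3.82%) than among the private clonotypes of each library (4.30% to 5.15%). IGHV1-19, at 3.31%, lay within the private range of 2.85% to 5.70%. The D-proximal genes IGHV5-2 and IGHV2-2 gave 1 of 439 and 0 of 259 clonotypes, and IGHV7-1, the V gene of the T15 phosphorylcholine antibodies, 0 of 15.

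**Figure D3:**
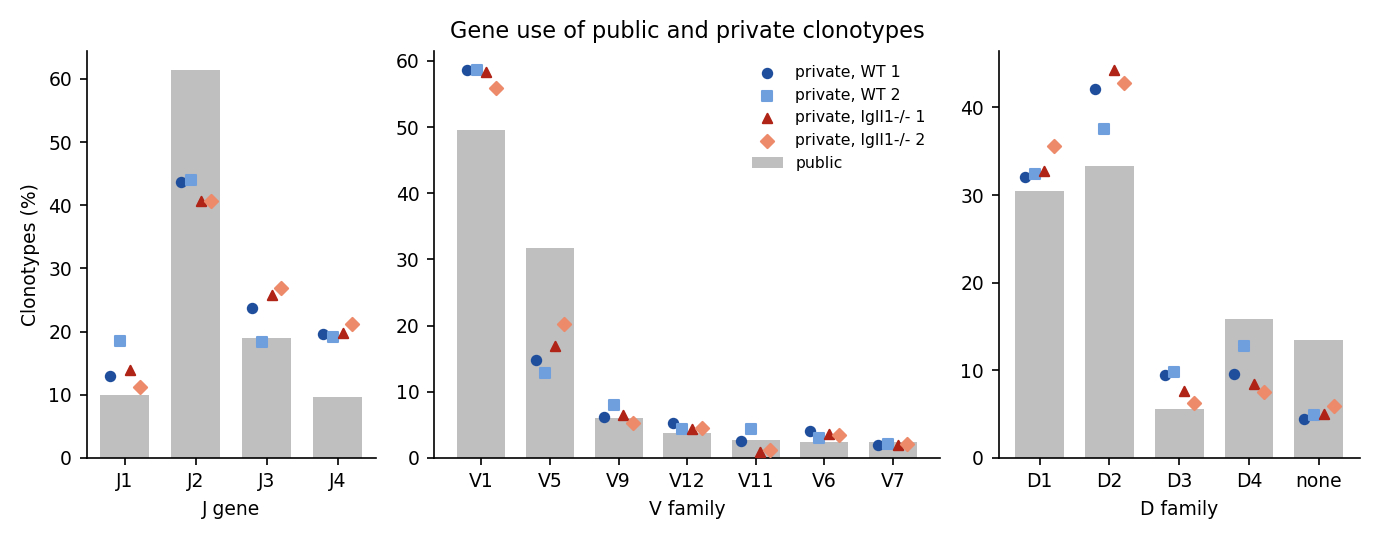
Percent of clonotypes (y axes) by J gene, V family and D family. Grey bars show the 1753 public clonotypes and points the private clonotypes of each library. The public bar exceeds all 4 points at J2 (61.4%), V5 (31.7%), D4 (15.8%), no named D (13.5%) and, by little, V7 (2.34%). It lies below them at J4 (9.70%), V1 (49.6%), D2 (33.3%) and, by less, at J1, V6, V12, D1 and D3.

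The same CDR3 often recurred under several V gene entries. The 1753 public clonotypes held 1245 distinct CDR3s, and 680 of them (38.8%) shared J and CDR3 with a public clonotype of another V entry. ARHYYGSSYYFDY with IGHJ2, in which D is IGHD1-1, was public under 28 V entries. IGHV5-17 held 83.2% of the 11670 reads on these 28 entries. In the IGHV5-17 clonotype the mean identity to the germline V gene over the short sequenced stretch was 90.3%. A private entry of the same CDR3 and J, on IGHV5-12-1, had another 1359 reads in Igll1-/- replicate 2. ARWDY was public under 22 entries, ARGGFAY under 20, ANWDFDY and ANWDY under 19 each and ATGTWFAY under 16, all of at most 8 amino acids. Among reads on public entries only, 92.9% of ARGGFAY lay on IGHV1-47, whereas the leading public entry of ARWDY, IGHV1-26 or IGHV1-34, held 23.4%. That entry had 560 reads over the 4 libraries. A private entry of ARWDY with IGHJ2, on IGHV1-42, had more, with 1287 reads in Igll1-/- replicate 2. In all, 232 public clonotypes (13.2%) had at most 1 read for every 10 of another V entry with the same J and CDR3, among them 158 of IGHV1 and 42 of IGHV5. A further measure of closeness gave 354 public clonotypes (20.2%) that were 1 amino acid away from one with the same V and J and at least 10 times the reads in at least 1 library. How many of these entries are separate rearrangements was not tested. Counted by J and CDR3 alone, 1798 pairs were public. Of these 28.3% had IGHV5 as their leading V against 16.1% of private pairs, 53.6% used IGHJ2 against 39.2%, and 22.6% had at most 7 amino acids against 9.58%.

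Counted as clonotypes, IGHV11-2 and IGHV12-3 together were no more frequent in the public set, at 6.27% against 4.93% to 8.62% of private clonotypes (difference −0.26 points, SD 1.83, exact sign-flip permutation test p = 0.875, adjusted p = 0.904). Counted as reads they were. Presence in all 4 libraries rose with read number, so the values weighted by reads are given as a description. The 2 genes together held 28.9% to 76.5% of public reads and 5.31% to 7.26% of private reads, 49.9 points more (SD 22.9, higher in 4 of 4 libraries). The IGHV11 family, with IGHV11-1 included, held 48.0% and 64.6% of public reads in wild-type against 1.82% and 3.55% of private reads. In Igll1-/- it held only 0.442% and 1.72% against 0.517% and 0.731%. The IGHV12 family held 11.3% to 42.9% of public reads against 3.50% to 5.62% of private reads. With reads as the weight, the public CDR3 was longer than the private one by 0.44 and 0.41 amino acids in the wild-type libraries, and the difference was −0.34 and −0.50 in Igll1-/-. The mean over the 4 libraries was 0.0024 (SD 0.49), in which opposite signs cancel. IGHJ2 divided in the same way, at −20.8 and −29.4 points in wild-type against 4.75 and 20.5 in Igll1-/- (mean −6.22, SD 23.0). By reads the IGHV5 family differed by −3.67 and −5.31 points in wild-type against 0.36 and 8.62 in Igll1-/-. IGHJ4 stayed lower by 14.3 to 18.4 points in all 4 libraries. IGHJ1 turned, to 34.4 points more in public clonotypes (SD 28.3, higher in 3 of 4 libraries).

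Within each of these genes public clonotypes began alike more often than private ones. Of 43 public IGHV11-2 clonotypes 37 began with MRY (86.0%, against 41.8% of 2694 private ones). IGHJ1 was used by 28 (65.1%, against 64.4%) and 28 had 11 or 12 amino acids (65.1%, against 66.4%), about as in private ones. Of 67 public IGHV12-3 clonotypes 61 began with AGD (91.0%, against 62.9% of 5870 private ones). In 53 the CDR3 had 12 amino acids with glycine at position 6 (79.1%, against 48.6%), as in AGDNYGYWYFDV and AGDYDGYWYFDV. A glycine at a fixed place of CDR3 is known from PtC-binding VH12 antibodies. IGHJ2 served 32 of the IGHV12-3 clonotypes, 47.8% of public as of private ones, and IGHJ1 29 (43.3%, against 32.5%). Every read-rich IGHV11-2 joint named here used IGHJ1, whereas the IGHV12-3 joints named used both. AGDLYDGYYYFDY, the largest clonotype of Igll1-/- replicate 2, had 13 amino acids and so lacked the form of 12 with glycine at position 6.

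Public IGHV11-2 clonotypes had lower read shares without Igll1. In wild-type libraries they summed to 17.9% and 19.6% of productive reads, and in Igll1-/- to 0.180% and 0.193%. Of all IGHV11-2 reads they made up 85.5% and 77.0% for wild-type but 37.4% and 27.5% for Igll1-/-. The gene was also scarcer outside the public set. It gave 2.39% and 4.25% of private clonotypes in wild-type against 0.626% and 0.723% in Igll1-/-. The largest public one, MRYGNYWYFDV with IGHD2-1, had 665 and 796 reads per 10000 productive reads in wild-type against 3.88 and 4.88 in Igll1-/-. MRYSNYWYFDV, with IGHD2-5, had 265 and 396 against 2.41 and 2.23. MRYGSSYWYFDV, with IGHD1-1, had 430 and 149 against 3.41 and 5.11. In all 3 the lowest wild-type value exceeded the highest Igll1-/- value by more than 10-fold. Their log2 fold changes, Igll1-/- over wild-type, were −7.38 (SE 1.74), −7.15 (SE 1.84) and −6.08 (SE 1.83), and all 3 had an adjusted p of 0.062 by edgeR (quasi-likelihood, Benjamini-Hochberg over all clonotypes tested). With DESeq2 the adjusted p was 0.016, 0.016 and 0.030. With only single-gene V entries in the fit, edgeR called the first 2 (adjusted p = 0.044 and 0.048). MRYGNYWYFDV ranked 1 in the mean of wild-type and 84 in that of Igll1-/-. MRYGSSWYFDV had 108 and 25.1 reads per 10000 in wild-type against 1.18 and 0.492. Still, the Igll1-/- reads kept the wild-type order to a degree. Across the 43 clonotypes log2 read numbers correlated at Pearson's r = 0.61 to 0.70 for pairs of different genotype, at 0.73 for the wild-type pair and at 0.85 for the Igll1-/- pair. The clonotypes are not independent replicates. Whether the Igll1-/- reads came from cells of that genotype was not tested.

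Public IGHV12-3 clonotypes went both ways, and more were lower than higher without Igll1. Of the 67, 39 had a mean Igll1-/- share over 10-fold below that of wild-type and 6 over 10-fold above. Together the 67 summed to 17.6% and 5.37% of productive reads in Igll1-/- against 10.7% and 3.44% in wild-type, so the genotypes overlapped. AGDYDGYWYFDV, with IGHD2-3, had 347 and 25.1 reads per 10000 in wild-type against 2.23 and 1.85 in Igll1-/- (log2 fold change −6.51, SE 2.14, edgeR adjusted p = 0.062, DESeq2 adjusted p = 0.024). AGDNYGYWYFDV, with IGHD1-1, had 14.9 and 11.7 in wild-type against 1315 and 3.33 in Igll1-/-. It was thus high in Igll1-/- replicate 1 alone and lowest in Igll1-/- replicate 2 (log2 fold change 5.63, SE 2.46, edgeR adjusted p = 0.108, DESeq2 adjusted p = 0.030). Without Igll1-/- replicate 1 its log2 fold change was −1.999. Without Igll1-/- replicate 2 it was 6.62 with an edgeR adjusted p of 0.0099, a fit in which 1 Igll1-/- library is left and is assumed to vary like the wild-type pair. AGDLYDGYYYFDY had 4.32 and 0.946 in wild-type against 1.47 and 398 in Igll1-/-, so its high value lay in replicate 2, and without that library its log2 fold change was −0.84 in place of 6.24 (edgeR adjusted p = 0.102, DESeq2 adjusted p = 0.017 with all libraries). AGDRGGYYYFDY and AGDRSGYGNLDY reached 257 and 110 in Igll1-/- replicate 1 and at most 4.42 elsewhere. None of these 4 joints was high in both Igll1-/- replicates. Across the 67 clonotypes log2 read numbers correlated at r = 0.18 to 0.23 between genotypes, 0.41 for the wild-type pair and 0.39 for the Igll1-/- pair.

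**Figure D4:**
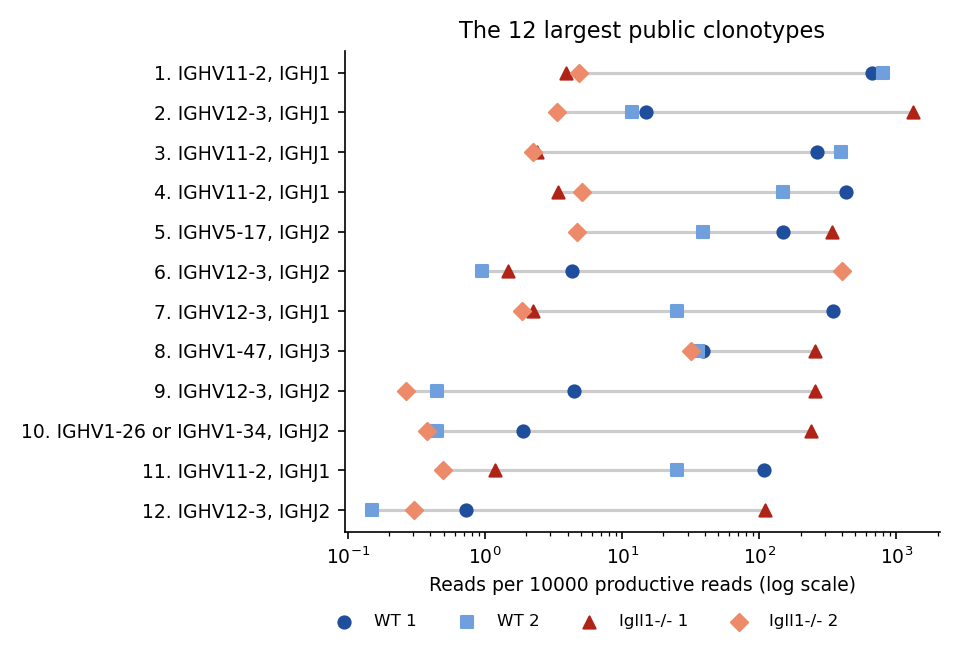
Reads per 10000 productive reads (x axis, log scale) of the 12 largest public clonotypes in each of the 4 libraries, numbered as in the list of CDR3s and labelled with V and J gene. Each point is 1 library and grey lines span its range. The IGHV11-2 clonotypes (1, 3, 4 and 11) have both wild-type points right of both Igll1-/- points, and clonotypes 2, 9, 10 and 12 have Igll1-/- replicate 1 alone far to the right.

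The remaining large clonotypes were less tied to a genotype. ARHYYGSSYYFDY on IGHV5-17 had 149 and 38.7 reads per 10000 in wild-type against 338 and 4.65 in Igll1-/- (log2 fold change 0.87, edgeR adjusted p = 0.775). Its lowest and its highest value were both in Igll1-/-, and without Igll1-/- replicate 1 the log2 fold change was −4.33. Summed over its 28 public V entries the CDR3 had 165 and 55.6 against 383 and 23.6. This sum leaves out a private entry on IGHV5-12-1, which had 1359 reads in Igll1-/- replicate 2. ARGGFAY on IGHV1-47, a joint with no named D, had 38.8 and 35.7 in wild-type against 253 and 31.5 in Igll1-/-, where only replicate 1 stood out. Without that library its log2 fold change was −0.24 in place of 1.93. YYSDY, from the entry IGHV1-26 or IGHV1-34, had 1.89 and 0.448 against 239 and 0.378. Without Igll1-/- replicate 1 its log2 fold change was −1.62 in place of 6.67.

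The genotypes were compared for each clonotype with at least 10 reads in at least 2 libraries. This held for 612 clonotypes, 273 of them public, so the remaining public clonotypes were too scarce to be tested. edgeR's quasi-likelihood test called 0 of 273 public clonotypes at an adjusted p under 0.05, and 0 of all 612 (0%), with 0.062 the smallest adjusted p. At an unadjusted p under 0.05 it was 78 public clonotypes (28.6%) against 46.9% of all tested. DESeq2 called 71 of the 270 public clonotypes for which it gave an adjusted p (26.3%) against 30.7% of all, 30 of them higher and 41 lower in Igll1-/-. Both Igll1-/- libraries lay above both wild-type libraries in 57 of 273 (20.9%) against 18.8% of all, and below both in 86 (31.5%) against 42.5%. A clonotype that is not public can pass the filter through 1 genotype alone, so these backgrounds hold clonotypes that are absent from one side. Public clonotypes can also pass through 1 genotype alone, with as little as 1 read in a library of the other. ARFTTVVATYYFDY (IGHV1-12) did so, with 190 and 608 reads in wild-type against 1 and 2 in Igll1-/-. The public counts therefore rest partly on clonotypes that passed on the side where they are high. The median log2 fold change was 0.30 in the public clonotypes tested and −0.64 in all. DESeq2's scaling moved both, to 0.87 and 0.07, and with TMM factors they were 0.40 and −0.44. Single libraries moved them further. Without Igll1-/- replicates 1 and 2 the public median was −1.999 and −0.52, and without wild-type replicates 1 and 2 it was 1.30 and 1.36. The median of all clonotypes ran from −4.95 to 1.71 over the same 4 fits, so neither median has a settled direction.

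Among the V genes, IGHV11-2 was lower in nearly every tested clonotype, and the other genes and families given here had clonotypes in both directions. No test of a difference between genes was run. For scale, of all 612 clonotypes tested 18.8% were higher and 42.5% lower in both Igll1-/- libraries. DESeq2 called 30.7% of those with an adjusted p. Of all 1753 public clonotypes, tested or not, 212 were higher, 312 lower and 1229 overlapped. Of 43 public IGHV11-2 clonotypes 22 were tested, and 21 of these (95.5%) were lower in both Igll1-/- libraries, with a median log2 fold change of −6.54. edgeR called 0 of them and DESeq2 called 16 (72.7%), all lower. Under DESeq2's scaling 21 of the 22 had a log2 fold change below 0, and 22 of 22 with TMM factors. Many of the 22 were within 1 amino acid of a much larger clonotype. With such near-identical clonotypes left out, 9 remained tested, 9 of 9 below 0 (median −6.46). Of IGHV12-3, 25 then remained, with 18 below 0. Median reads of the 43 were 26 in each wild-type library, and 2 and 3 in Igll1-/- replicates 1 and 2. The filter of at least 10 reads therefore favoured clonotypes that were high in wild-type. Over all 43, 29 were lower and 2 higher in both Igll1-/- libraries, and 12 overlapped. Of 67 IGHV12-3 clonotypes 34 were tested, with 20 (58.8%) lower and 2 (5.88%) higher in both Igll1-/- libraries. DESeq2 called 15 lower and 5 higher. The log2 fold changes ran from −7.23 to 6.95, with a median of −5.48 and 25 of 34 below 0. Median reads of the 67 were 89 and 17 in wild-type against 3 in each Igll1-/- library, so the filter again favoured clonotypes high in wild-type. Over all 67, 33 were lower and 5 higher in both Igll1-/- libraries, and 29 overlapped. The IGHV5 family had 57 of 555 tested, of which 17 (29.8%) were higher and 5 (8.77%) lower in both Igll1-/- libraries. DESeq2 called 8 higher and 1 lower (15.8%), and the median log2 fold change was 1.30. The IGHV1 family had 129 of 870 tested, with 35 (27.1%) higher and 32 (24.8%) lower. DESeq2 called 15 higher and 7 lower (17.5%), and the median was 0.81. Of 19 tested IGHV9 clonotypes 2 (10.5%) were higher and 5 (26.3%) lower in both.

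Outside the largest, the lowest log2 fold changes without overlap of the genotypes were again mainly those of IGHV11-2. MRYNPSYWYFDV, MRYDGNYWYFDV, MRYGPYWYFDV and MRYGGYWYFDV had log2 fold changes from −8.02 to −7.70, with edgeR adjusted p from 0.062 to 0.071. All 4 rested mostly on wild-type replicate 2, where MRYDGNYWYFDV had 107 reads per 10000 against 1.46 in wild-type replicate 1 and 0.235 and 0.189 in Igll1-/-. ARFTTVVATYYFDY on IGHV1-12 had a log2 fold change of −8.07 (SE 2.39, edgeR adjusted p = 0.062), with 9.23 and 30.3 reads per 10000 in wild-type against only 1 and 2 reads in Igll1-/-. The highest without overlap was that of ARYGYYYWYFDV on IGHV7-3 and IGHJ1, with 0.486 and 0.100 reads per 10000 in wild-type against 7.40 and 65.3 in Igll1-/- (log2 fold change 6.93, SE 2.41, edgeR adjusted p = 0.067, DESeq2 adjusted p = 0.0084). ARQLAY (IGHV1-69 or IGHV1-74), ARHYYGSSWYFDV (IGHV5-12), TRWDY (IGHV1-15) and ANYYGSSYY (IGHV1-64) followed with log2 fold changes of at least 5.54 and edgeR adjusted p from 0.071 to 0.090. ARHYYGSSWYFDV had 0.437 and 0.199 reads per 10000 in wild-type against 12.3 and 26.6 in Igll1-/-, and TRWDY had 0.146 and 0.050 against 4.47 and 5.86. ARQLAY had 2 and 1 reads in wild-type against 221 and 11, so it rested mostly on Igll1-/- replicate 1. The same CDR3 with IGHJ3 on IGHV1-53 was larger and its genotypes overlapped. It had 0.971 and 0.299 reads per 10000 in wild-type against 88.95 and 0.492 in Igll1-/-. The 5 clonotypes with the highest log2 fold changes without overlap used 5 V entries and no IGHV11-2 or IGHV12-3 joint. Each of the 5 lowest and 5 highest passed the filter through both libraries of the genotype where it was high. Their fold changes and p-values are therefore given as a description.

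**Figure D5:**
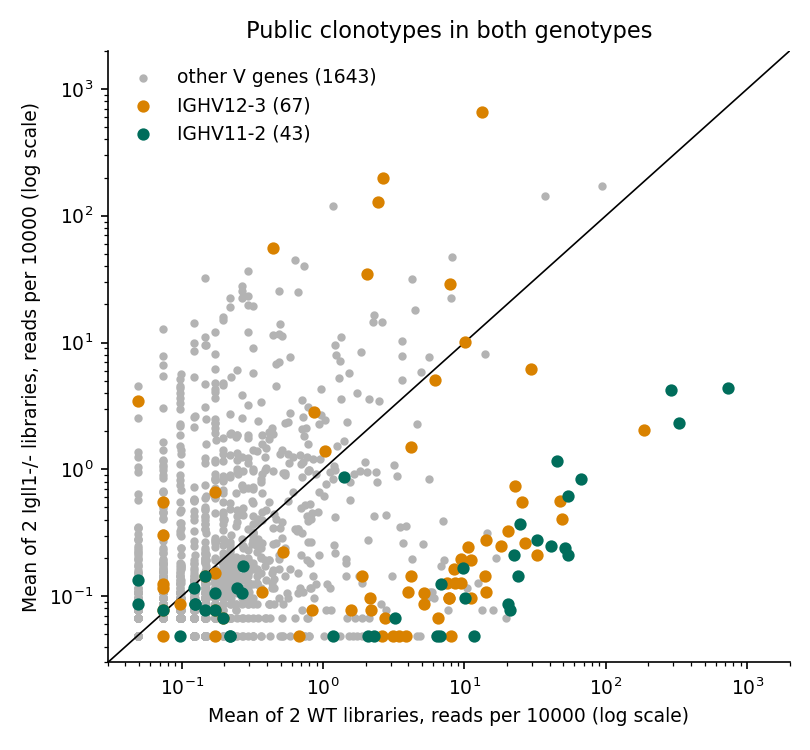
Mean share of each of the 1753 public clonotypes in the 2 wild-type (x axis) and the 2 Igll1-/- libraries (y axis), in reads per 10000 productive reads on log scales, with the line of equality. Of the 43 IGHV11-2 points 3 lie above the line, each near the level of single reads. IGHV12-3 points (67) lie on both sides, 16 of them above the line, and the edges at the left and bottom are set by single reads.

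Ranks differed between the genotypes too. Of the 50 public clonotypes with the highest mean share in each genotype 4 were shared (8% of each list), and of the top 100 it was 19 (19%). IGHV11-2 gave 18 of the top 50 in wild-type and 0 in Igll1-/-, and IGHV12-3 gave 22 and 7. In the wild-type top 50, 17 clonotypes lay outside the top 500 of Igll1-/-, 6 of them IGHV11-2, and 13 did the reverse. Ranks also moved between replicates. Of the top 50 of single libraries 22 were shared by the wild-type pair, 13 by the Igll1-/- pair and 3 to 8 by pairs of different genotype. Over the 1753 public clonotypes Spearman's rho between read numbers was 0.45 for the wild-type pair, 0.40 for the Igll1-/- pair and 0.33 to 0.36 across genotypes. Over all of them the highest share stood 4.49 times (median) above the lowest, 201 stayed within 2-fold and 145 differed by over 100-fold. The highest share was in wild-type replicate 1 for 771, in wild-type replicate 2 for 238, and in Igll1-/- replicates 1 and 2 for 456 and 288. In 111 clonotypes (6.33%) 1 library held at least 90% of the 4 shares.

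The most even public clonotypes were small. ARHYYGSSYYFDY on IGHV10-1 had 10, 10, 6 and 9 reads in wild-type replicates 1 and 2 and Igll1-/- replicates 1 and 2. ARRDYFDY on IGHV5-17 had 3, 3, 2 and 3, and ASYFDY on IGHV1-22 had 3, 2, 2 and 3. At these read numbers an equal share and a difference of severalfold cannot be told apart.

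Unproductive rearrangements, whose sequence is out of frame or holds a stop and which make no heavy chain, recurred less often. Of 11957 unproductive clonotypes 39 (0.326%) occurred in all 4 libraries, against 1.18% of the productive ones. The unproductive clonotypes were fewer and had fewer reads, and the part of that in the difference was not tested.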

How the data were processed

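Rearranged Igh DNA of 4 B-1a libraries was used, and the Igk libraries were not used here. The authors assigned reads with IMGT/High-V-QUEST (version not given in the sources used here) and deposited, for each library, the count of reads per clonotype and the percent identity to the germline V gene. Unproductive clonotypes were counted apart. Clonotypes were keyed by V entry, J gene and CDR3 amino acids. Entries with several V genes kept their joint name. Library depth was 170208 to 264284 productive reads, so 3 reads gave a floor of 0.00114% to 0.00176%. Shares have 95% Wilson intervals.

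Clonotypes with at least 10 reads in at least 2 libraries (612) were compared between genotypes with edgeR 4.0.16 (quasi-likelihood, library size fixed to productive reads, Benjamini-Hochberg over all 612) in R 4.3.3. DESeq2 1.42.0 was an alternative, and adjusted p-values it did not give were kept missing. Other alternatives were TMM factors, no filter, a replicate block, each library left out, entries with a single V gene, near-identical clonotypes left out, a minimum of 2 or 10 reads per library, D in the key and weighting by reads. Public and private clonotypes were compared within libraries by an exact sign-flip permutation test with scipy 1.17.1. Python 3.11.15, pandas 2.3.3 and matplotlib 3.10.9 did the rest. The scripts were tested on simulated data.

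Clonotypes named were the 12 with the highest mean share, the 3 largest of IGHV11-2 and of IGHV12-3 (IGHV7-1 had none), the 5 highest and 5 lowest fold changes without overlap, and the 3 most even. V genes named were the 10 with most public clonotypes and the lists of PtC genes (IGHV11-2, IGHV12-3), the phosphorylcholine gene IGHV7-1 and D-proximal genes (IGHV5-2, IGHV2-2). The public clonotypes and these lists were chosen with earlier results of these data known. Other CDR3s were named after their values were seen. The primers were BIOMED-2 primers with some added, among them one for VH12-3, so V shares depend on primers as well as on cells.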

Additional observations from a re-analysis of the deposited data

How the results depend on the processing

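The number of public clonotypes followed the read minimum and the number of libraries. It was 480 with at least 2 reads in each library and 33 with at least 10, and 2112 to 3438 when each library was left out. The read share of public clonotypes, Igll1-/- minus wild-type, was −3.64 points and ran from −14.1 to 8.27 with a library left out. The shorter public CDR3 turned to 0.58 amino acids longer with at least 10 reads in each library and to 0.0024 weighted by reads. IGHJ1, lower by clonotypes, was 0.074 points higher at 2 reads, 21.6 at 10 reads and 34.4 by reads. IGHV12-3 plus IGHV11-2 were 4.17, 34.4 and 49.9 points higher in the same order, and 0.54 higher against private clonotypes of at least 10 reads. The last alternative was added once the data had been seen, as were the key of J and CDR3 and leaving out the largest clonotype. The cause was not tested. edgeR's 0 public calls became 71 with DESeq2, 2 with a single V gene (MRYGNYWYFDV and MRYSNYWYFDV) and 1 with the replicate block, and 0 to 1 with a library left out, where a lone library is assumed to vary like the other genotype. Over all clonotypes the calls were 124 with TMM factors, 177 with DESeq2, 53 with a single V gene, 1 with the replicate block and 0 to 1 with a library left out. The block called MRYGNYWYFDV (edgeR adjusted p = 0.044). Deviations of same-numbered libraries correlated at r = 0.16 over 612 clonotypes, which with 2 pairs does not establish pairing, and the labels do not say what a number shares. The block turned ARHYYGSSYYFDY on IGHV5-17 to −0.93, and DESeq2 turned it on IGHV10-1 to 0.40. With a library left out, log2 fold changes ran from −1.999 to 6.62 for AGDNYGYWYFDV, −4.33 to 2.15 for ARHYYGSSYYFDY on IGHV5-17, −0.84 to 7.71 for AGDLYDGYYYFDY, −0.24 to 2.77 for ARGGFAY and −1.62 to 8.04 for YYSDY. With 2 libraries per genotype and most public clonotypes at a few reads, depth limits every comparison of single scarce clonotypes.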
